A study of Mus musculus with 7 samples.

Results

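Chemokines are small secreted proteins that direct the movement of leukocytes, and chemokine receptors are the G protein-coupled proteins through which leukocytes sense them. The genes described here were chosen by symbol, with earlier results of these data known and with pseudogenes and the Ccrl genes left out. Members were every numbered ligand and receptor of the CC, CXC, XC and CX3C families and every atypical chemokine receptor. They were 62 of 56691 genes in the count table, 39 of them ligands and 23 receptors. Liver RNA had been sequenced from 4 control mice and from 3 mice given LPS, a cell wall component of Gram-negative bacteria, at 10 mg/kg into the peritoneal cavity, and the LPS-treated mice were killed 24 h later. All 7 were male C57BL/6J mice, an inbred laboratory strain, bought at 8 weeks of age and kept for 2 weeks before use. Whether the control mice received a vehicle injection was not given in the sources used here. LPS alone models an acute hyper-inflammatory liver injury and brings no living bacteria, and the comparison of LPS with control asks which inflammatory transcripts of the liver respond to it.

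Chemokines in the liver are made by hepatocytes, Kupffer cells (the resident macrophages), endothelial cells and stellate cells, and by leukocytes that have entered the tissue. As background, CXC chemokines with a glutamate-leucine-arginine motif attract neutrophils through CXCR2, ligands of CCR2 attract inflammatory monocytes, and interferon-induced ligands of CXCR3 attract activated T cells and natural killer (NK) cells. A few chemokines, such as CXCL12, are produced by stromal cells without stimulation, and atypical receptors bind chemokines without G protein signalling and clear them.

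Polyadenylated RNA was sequenced with the strand of the transcript kept, and the values were reads counted per gene. Total counts of control replicates 1 to 4 were 14991022, 15096573, 15721944 and 18584140, and those of LPS replicates 1 to 3 were 20500391, 17095607 and 17821331. Levels are given as CPM, the counts of a gene relative to the library's total scaled with TMM factors and multiplied by 1000000. At this depth, 3 counts, taken as the detection floor, were worth between 0.138 CPM in the deepest library and 0.212 CPM in the shallowest, and floors and counting intervals cover counting error only. The labels and the animal protocol describe the samples as separate mice. LPS replicates 2 and 3 were closer to each other than any other pair of a group, with an SD of the log2 ratio of 0.10 over well-counted genes against 0.29 to 0.58 in the other 8 pairs. For this reason every call was repeated with both summed into 1 sample: 17 members were then called higher, among them all 15 described below, and 2 of the 4 members described below as lower kept their call. Mitochondrially encoded genes took 23.7, 14.6, 7.48 and 8.96 percent of the counts in control mice and 6.45, 3.83 and 3.94 percent in LPS-treated mice, and the same 15 and 4 members were called without them. The liver label was checked with 7 hepatocyte markers: all were tested, 1 (Ttr) was called lower and none higher, and the most abundant, Alb, stood at 37958, 37776, 61686 and 50492 CPM in control mice and 24642, 24659 and 24693 CPM in LPS-treated mice. The summed level of these 7 was 65458, 66972, 91922 and 77378 CPM in control mice and 43910.1, 47534 and 47458 CPM in LPS-treated mice, so hepatocyte transcripts were abundant in every sample. Alb was the largest part of this sum, and the 7 did not move together. Every LPS-treated mouse was below every control mouse for Alb, Apoa1 and Ttr and above every one for Hnf4a and Cps1. Apob and Cyp2e1 overlapped between groups.

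Chemokine ligands and receptors were among the transcripts that differed between LPS-treated and control liver. Of the 62 genes, 30 passed the filter on low counts and were tested. Among these, 15 were called higher and 4 lower in LPS-treated mice by edgeR's quasi-likelihood test (called when the adjusted p was under 0.05 and the fold change exceeded 1 in either direction on the log2 scale), and 11 were not called. Across all 13683 genes tested, 7.81% were called higher, 7.31% lower and 15.1% in either direction. The median log2 fold change was 1.01 over the 30 tested members and -0.01 over all genes tested. Of the 30, 7 (Ccl2, Ccl3, Ccl4, Ccl7, Ccr1, Cxcl2 and Cxcr2) reached 10 counts in every LPS-treated mouse but in fewer than 3 control mice. They passed the filter through the LPS group, which favours a difference but does not force one. Another 3 (Ackr3, Ackr4 and Ccl24) passed it through the control group. The filter itself scales 10 counts to library size, and on that scale Ccl5 also passed only with the LPS group. Its counts were 8, 15, 11 and 10 in control mice and 122, 68 and 54 in LPS-treated mice. In the marker and pathway lists below, where Pf4 is both a chemokine-related gene and a platelet marker, 101 entries were tested. Of these entries, 15 passed through the LPS group and 9 through the control group, judged by 10 raw counts. The counts and medians over tested genes of a list therefore describe them and are not used as support. Of 39 ligands, 20 were tested, 13 called higher, 3 called lower and 4 not called, with a median log2 fold change of 2.64. Of 23 receptors, 10 were tested, 2 called higher, 1 called lower and 7 not called, with a median of 0.29. The difference between ligands and receptors was not tested. As these are whole-tissue samples, fewer cells of a type and less RNA per cell cannot be told apart, and the same holds for more cells and more RNA per cell.

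**Figure D1:**
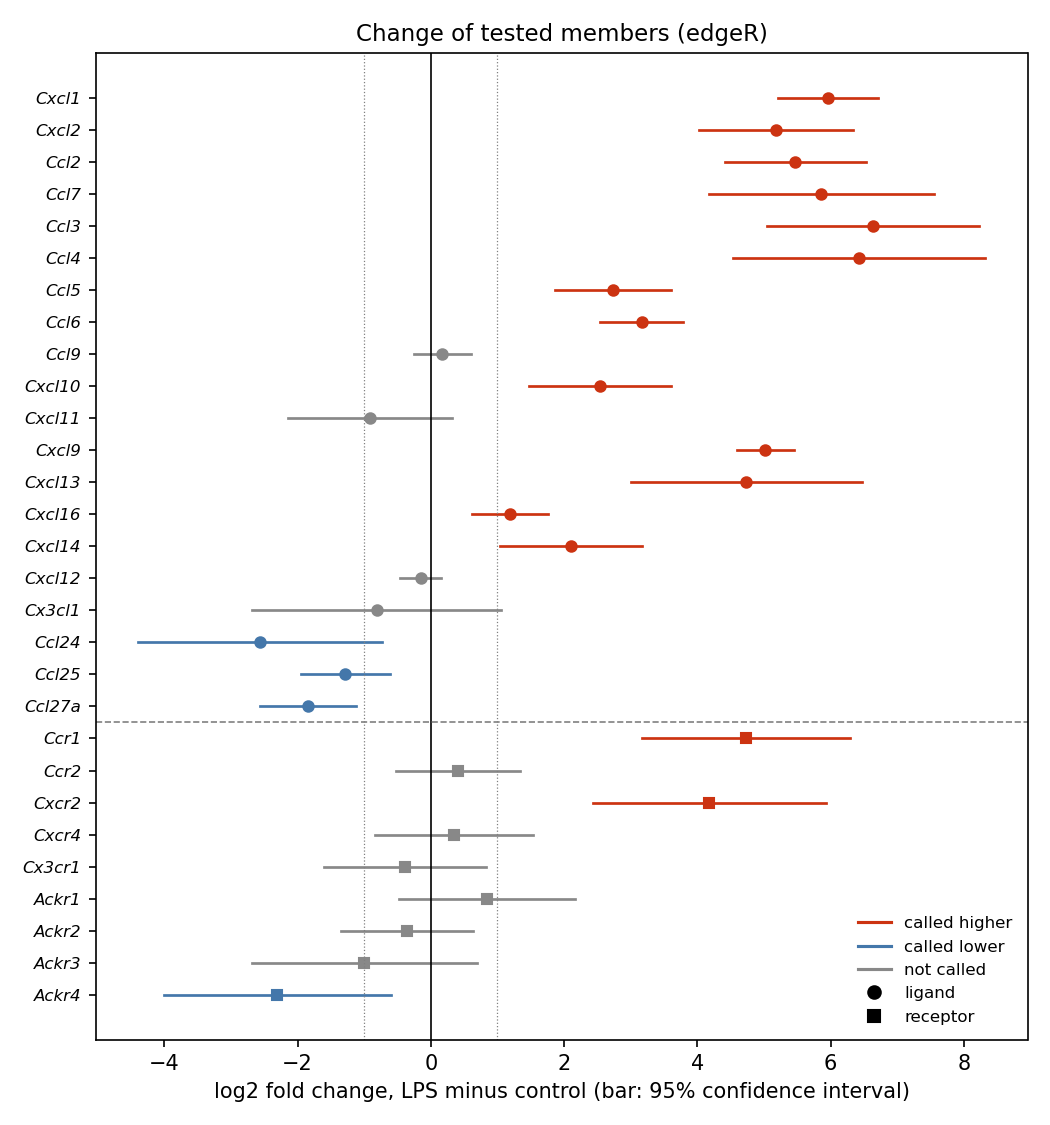
Log2 fold change (LPS minus control, x axis) of 29 of the 30 tested members (y axis), with ligands as circles above the dashed line and receptors as squares below it; bars are 95% confidence intervals, dotted lines mark a log2 fold change of 1 in either direction, and colour marks the call. The ligands reached log2 fold changes up to 6.63 (Ccl3), whereas among receptors only Ccr1 (4.73) and Cxcr2 (4.18) were called higher.

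The composition of the ligand transcripts differed as well. To compare genes with each other, CPM was divided by the length of the gene's exons in kb. On this per-kb scale the summed ligand level was 73.9, 71.2, 74.7 and 73.6 CPM per kb in control mice and 429, 352 and 359 CPM per kb in LPS-treated mice. All LPS-treated mice lay above all control mice, and the means were 73.4 ± 1.5 (SD, n = 4) and 380.0 ± 42.8 CPM per kb (SD, n = 3). Without division by length, the ligands summed to 342, 307, 333 and 354 CPM in control mice and 994, 938 and 957 CPM in LPS-treated mice, a smaller relative difference. In control liver, Cxcl12, a chemokine made by resting stroma, and Ccl9, a ligand of CCR1, together made up 74.9% of the summed per-kb level on average. In LPS-treated liver they made up 15.2%. Cxcl9, an interferon-induced T cell attractant, and Cxcl1, a neutrophil attractant, together made up 7.04% in control liver and 56.3% in LPS-treated liver. In control mice the mean per-kb levels of Ccl9 (31.1 CPM per kb) and Cxcl12 (23.9 CPM per kb) were the highest, and their ranges of 25.5 to 34.7 and 20.6 to 26.4 overlapped. Cxcl9 followed at 3.62 CPM per kb. In LPS-treated mice the means were 117 CPM per kb for Cxcl9, 94.4 for Cxcl1, 35.0 for Ccl9, 26.1 for Ccl2, 23.7 for Cxcl13 and 21.6 for Cxcl12. In LPS-treated mice, Ccl2 (13.1 to 46.0) and Cxcl13 (6.71 to 57.2) overlapped per kb with Ccl9 (23.6 to 42.5) and Cxcl12 (20.3 to 22.3). Their places in the order were therefore not resolved, while Ccl9 was above Cxcl12 per kb in each LPS-treated mouse. Without division by length, Cxcl12 was above Ccl9 in every mouse, at 166, 180.4 and 182 against 72.0, 129 and 119 CPM with LPS. The shares and the order given here therefore hold for the per-kb scale only.

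**Figure D2:**
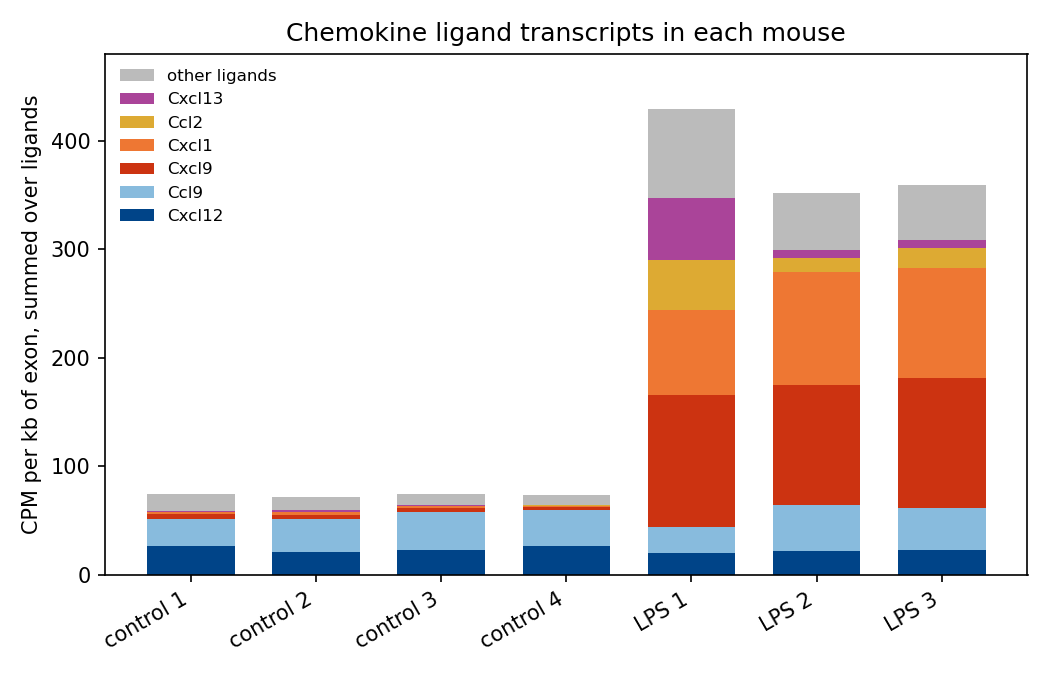
Summed level of all 39 chemokine ligands in each mouse, in CPM per kb of exon (y axis, from 0), divided into the 6 most abundant ligands and the rest. Control bars lie between 71.2 and 74.7 CPM per kb and consist mostly of Cxcl12 and Ccl9, and LPS bars lie between 352 and 429 CPM per kb, with Cxcl9 and Cxcl1 as their largest parts.

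Among ligands that attract neutrophils, 2 of 5 were tested and both rose. Cxcl1 (ENSMUSG00000029380), which encodes the main mouse ligand of CXCR2, stood at 2.69, 5.11, 2.57 and 1.16 CPM in control mice and at 146, 195 and 190.0 CPM in LPS-treated mice. The lowest LPS-treated mouse was far above the highest control mouse, so the groups did not overlap. The log2 fold change was 5.96 (SE 0.35, edgeR adjusted p = 1.17e-07), a 62.2-fold rise. Cxcl2 (ENSMUSG00000058427), a second CXCR2 ligand made in large amounts by macrophages and neutrophils, had 0.0708, 0.0631, 0.0611 and 0.339 CPM in control mice and 5.25, 5.15 and 6.10 CPM in LPS-treated mice. All LPS-treated mice lay within a narrow band above all control mice, of which replicates 1 to 3 held 1 read each and replicate 4 held 7. Its log2 fold change was 5.18 (SE 0.53, edgeR adjusted p = 1.52e-05). Without control replicate 4, 3 control reads stood against 292 LPS reads, a ratio of 84.7 with a 95% counting interval of 28.7 to 413. Per kb, Cxcl1 (94.4 CPM per kb) was more abundant than Cxcl2 (2.66 CPM per kb) in LPS-treated mice, and their ranges did not overlap. Cxcl5, a CXCR2 ligand typical of epithelial cells, was at 0 counts in every control mouse and at 17, 7 and 23 counts in LPS-treated mice, too few for the filter. With 3 counts placed in each control library it was at least 4.87-fold higher with LPS, and at least 3.38-fold without LPS replicate 3. Cxcl3, a close relative of Cxcl1 and Cxcl2, had 10 counts in LPS replicate 2 and 0 in every other mouse, so its group mean was at least 1.18-fold higher with LPS and rested on a single mouse. Cxcl15, known from lung epithelium, had 1 count in control replicate 1 and 0 elsewhere. Because Cxcl1, Cxcl2 and Cxcl3 are similar in sequence, the division of reads among them is uncertain.

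The summed level of the neutrophil-attracting group was 2.83, 5.18, 2.63 and 1.5 CPM in control mice and 152, 201 and 198 CPM in LPS-treated mice. Neutrophil markers rose with it: 5 of 6 were tested and all 5 were called higher. Of these, S100a8, Retnlg and Mmp8 passed the filter through the LPS group, which favours such a call. Csf3r was the most abundant of them in control mice and S100a9, which encodes a calcium-binding protein of granulocytes, in LPS-treated mice. Their summed level was 5.17, 3.34, 1.53 and 2.47 CPM in control mice and 192, 139 and 134 CPM in LPS-treated mice. Ly6g, the surface antigen that defines mouse neutrophils, was at 0 counts in every control mouse and at 7, 0 and 1 counts in LPS-treated mice, and was not tested. The part of neutrophil number in these values was not tested.

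Ligands of CCR2, which draw monocytes from the blood, formed the next group, with 2 of 4 tested and both called higher. Ccl2 (ENSMUSG00000035385), which encodes monocyte chemoattractant protein, stood at 0.849, 0.189, 0.550 and 1.02 CPM in control mice and at 52.4, 14.9 and 21.7 CPM in LPS-treated mice. LPS replicate 1 was the highest, and the lowest LPS-treated mouse was still well above the highest control mouse. This gave a log2 fold change of 5.47 (SE 0.49, edgeR adjusted p = 4.24e-06), which was 4.78 without LPS replicate 1. Ccl7 (ENSMUSG00000035373), which encodes another ligand of CCR2 that mobilises monocytes from bone marrow, was at 0.849, 0, 0 and 0 CPM in control mice and 13.8, 10.4 and 9.28 CPM in LPS-treated mice. Of the control mice, only replicate 1 held any read, and all LPS-treated mice were higher. Its log2 fold change was 5.86 (SE 0.78, edgeR adjusted p = 1.27e-04). Without control replicate 1, Ccl7 was at 0 in the other control mice and at least 64.8-fold higher with LPS. Ccl12, the other mouse CCR2 ligand of the monocyte chemoattractant type, had 0 counts in every control mouse and 48, 4 and 19 counts in LPS-treated mice. It did not pass the filter, and with 3 counts in each control library it was at least 6.67-fold higher with LPS, and at least 3.95-fold without LPS replicate 1. Ccl8, a monocyte chemoattractant that in mice also acts on CCR8, had 7 counts in control replicate 1 and 11 and 3 counts in LPS replicates 1 and 2, with 0 in the remaining mice. The summed level of the group was 2.19, 0.189, 0.550 and 1.02 CPM in control mice and 68.9, 25.8 and 32.2 CPM in LPS-treated mice.

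Markers of monocytes moved with these ligands. All 5 were tested and called higher, but Ly6c2, Chil3, F13a1 and Vcan passed the filter through the LPS group, so only the call of Plac8 was free of it. The markers had a summed level of 11.4, 6.82, 5.56 and 5.47 CPM in control mice and 78.3, 61.5 and 74.6 CPM in LPS-treated mice, and Plac8 was the most abundant of them in both groups. None of the 5 was at 0 in all mice, although Chil3 was at 0 counts in 3 of 4 control mice. The part of monocyte number in the ligand values was not tested.

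The 5 ligands that attract monocytes, macrophages, NK cells and effector T cells were all tested, and 4 were called higher. Ccl3 (ENSMUSG00000000982), macrophage inflammatory protein 1 alpha, was at 0.0708, 0, 0.0611 and 0 CPM in control mice, 2 reads in all, and at 5.21, 3.41 and 2.49 CPM in LPS-treated mice. The groups were far apart, and against so few control reads the ratio was 130 with a 95% counting interval of 35.4 to 1077. Without control replicate 1 this ratio was 204, with an interval of 36.3 to 8113. In the fit its log2 fold change was 6.63 (SE 0.73, edgeR adjusted p = 2.75e-05). Ccl4, the related macrophage inflammatory protein 1 beta, had a single read among the control mice, in replicate 2, and 2.12, 1.35 and 2.24 CPM in LPS-treated mice. No LPS-treated mouse came near the control mice, with a ratio of 130 and a counting interval of 22.7 to 5165 (fitted log2 fold change 6.42, SE 0.87, edgeR adjusted p = 1.54e-04). Without control replicate 2 all remaining control mice were at 0, and Ccl4 was at least 10.6-fold higher with LPS.

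Ccl5, which encodes RANTES, a product of T cells, NK cells and macrophages, was at 0.566, 0.947, 0.672 and 0.484 CPM in control mice and 5.62, 4.38 and 3.36 CPM in LPS-treated mice. The groups did not overlap, and the log2 fold change was 2.74 (SE 0.40, edgeR adjusted p = 2.79e-04). Ccl6, a rodent chemokine of myeloid cells, was at 1.42, 4.17, 3.42 and 2.56 CPM in control mice and 31.8, 24.0 and 22.3 CPM in LPS-treated mice. Again all LPS-treated mice were higher, with a log2 fold change of 3.16 (SE 0.28, edgeR adjusted p = 4.54e-06). Ccl9, a rodent CCR1 ligand already abundant in control liver, stood at 77.7, 94.6, 106 and 100.4 CPM in control mice and 72.0, 129 and 119 CPM in LPS-treated mice. LPS replicate 1 was the lowest of the 7 mice and LPS replicates 2 and 3 the highest, so the groups overlapped. Ccl9 was not called, with a log2 difference of 0.17 (95% confidence interval -0.25 to 0.60, edgeR adjusted p = 0.569). Since Ccl9 dominated the group, its summed level was 79.7, 99.8, 109.9 and 103 CPM in control mice and 117, 163 and 149 CPM in LPS-treated mice.

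The interferon-induced ligands of CXCR3 contained the most abundant chemokine transcript of LPS-treated liver per kb. Cxcl9 (ENSMUSG00000029417), which attracts activated T cells and NK cells, was at 13.4, 8.77, 12.8 and 8.76 CPM in control mice and 367, 333 and 361 CPM in LPS-treated mice. Both groups were tight and far apart. The log2 fold change of 5.02 (SE 0.19, edgeR adjusted p = 4.91e-09) amounted to a 32.5-fold rise and had the smallest SE among the 15 members called higher. Cxcl10 (ENSMUSG00000034855), the second interferon-induced ligand of CXCR3, was at 2.62, 2.84, 3.30 and 2.32 CPM in control mice and 33.8, 7.80 and 6.29 CPM in LPS-treated mice. All LPS-treated mice exceeded all control mice, but LPS replicate 1 was several times above the other two. The log2 fold change was 2.54 (SE 0.49, edgeR adjusted p = 0.00207) and fell to 1.35 without LPS replicate 1, where it was still called. Cxcl11, the remaining CXCR3 ligand, was at 5.87, 2.71, 1.10 and 1.45 CPM in control mice and 1.94, 1.10 and 1.31 CPM in LPS-treated mice. The groups overlapped, control replicate 1 was the highest mouse, and Cxcl11 was not called (log2 difference -0.92, 95% confidence interval -2.15 to 0.31, edgeR adjusted p = 0.265), with a log2 difference of -0.27 without control replicate 1. As background, C57BL/6 mice carry a frameshift in Cxcl11 and make no functional CXCL11 protein.

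Cxcr3, the receptor of these ligands, had 3 counts or fewer in every mouse. Of 6 T cell markers 3 were tested, Cd28, which passed the filter through the LPS group, was called higher and Cd4, which passed it through the control group, lower, and the defining genes Cd3d and Cd3e were too low to be tested. The summed level of the 6 T cell markers was 3.82, 3.79, 4.77 and 3.34 CPM in control mice and 13.4, 24.4 and 19.0 CPM in LPS-treated mice. Cd4 was the most abundant in control mice and Cd28 in LPS-treated mice, where it made up most of the sum. Without Cd28 the T cell markers summed to 3.75, 3.72, 4.64 and 2.81 CPM in control mice and 1.75, 1.22 and 0.747 CPM in LPS-treated mice, with every LPS-treated mouse below every control mouse. Of 5 NK cell markers only Gzma, the most abundant, was tested, through the LPS group, and it was called higher, while Ncr1 was at most at 0.322 CPM in any mouse. The NK cell markers summed to 1.77, 1.39, 0.794 and 0.677 CPM in control mice and 7.51, 7.47 and 7.72 CPM in LPS-treated mice. Without Gzma they summed to 0.425, 0.631, 0.428 and 0.435 CPM in control mice and 1.94, 1.55 and 0.996 CPM in LPS-treated mice. Klrb1c had 1, 5, 0 and 9 counts in control mice and 28, 8 and 14 in LPS-treated mice, with separate CPM. Ncr1, Klre1 and Eomes overlapped between groups. The part of T and NK cell number in the ligand values was not tested.

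The ligands of CXCR5 and CXCR6 and Cxcl14 were higher with LPS, and the ligands of CXCR4 and CX3CR1 were not called. Cxcl13 (ENSMUSG00000023078), the B cell attractant that organises lymphoid follicles, was at 0.708, 1.96, 1.41 and 0.145 CPM in control mice and 65.8, 8.37 and 7.72 CPM in LPS-treated mice. LPS replicate 1 held 1428 reads against 130 and 124 in the other LPS-treated mice, and all of them were above all control mice. It rose by a log2 fold change of 4.73 (SE 0.80, edgeR adjusted p = 8.12e-04), which was 2.95 without LPS replicate 1. Over the same mice, summed B cell markers were lower: 3 were tested, all through the control group, Cd79b was called lower, and Cd79a and Ms4a1 were not called. They summed to 2.69, 3.72, 2.57 and 2.56 CPM in control mice and 0.645, 0 and 0.872 CPM in LPS-treated mice, with no marker detected in LPS replicate 2. Their part in the Cxcl13 value was not tested.

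Cxcl16, a transmembrane chemokine and scavenger receptor that binds CXCR6 on NKT and T cells, stood at 5.73, 5.87, 3.12 and 4.79 CPM in control mice and 13.7, 8.31 and 11.3 CPM in LPS-treated mice. Each LPS-treated mouse was above each control mouse, with a log2 fold change of 1.19 (SE 0.26, edgeR adjusted p = 0.00518). Cxcl14, a chemokine of epithelia and stroma without an established receptor, was at 1.56, 1.07, 0.428 and 0.581 CPM in control mice and 2.49, 5.41 and 3.74 CPM in LPS-treated mice. The groups did not overlap, and the log2 fold change was 2.10 (SE 0.49, edgeR adjusted p = 0.00708). Without LPS replicate 2, its highest mouse, the adjusted p of Cxcl14 was 0.0535 in edgeR and the call was lost, and over all alternatives it ranged from 1.17e-04 to 0.0535. Cxcl12, the stromal ligand of CXCR4 that retains stem cells and lymphocytes, was at 212, 169, 184 and 216 CPM in control mice and 166, 180.4 and 182 CPM in LPS-treated mice. The groups overlapped closely, and the log2 difference was -0.15 with a 95% confidence interval of -0.46 to 0.16 (edgeR adjusted p = 0.489), narrower than a 2-fold change in either direction. Cx3cl1, the membrane-bound ligand of CX3CR1, had between 0 and 1.06 CPM, with overlapping groups (log2 difference -0.81, 95% confidence interval -2.68 to 1.05, edgeR adjusted p = 0.535), and its log2 difference was -1.47 without LPS replicate 1.

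**Figure D3:**
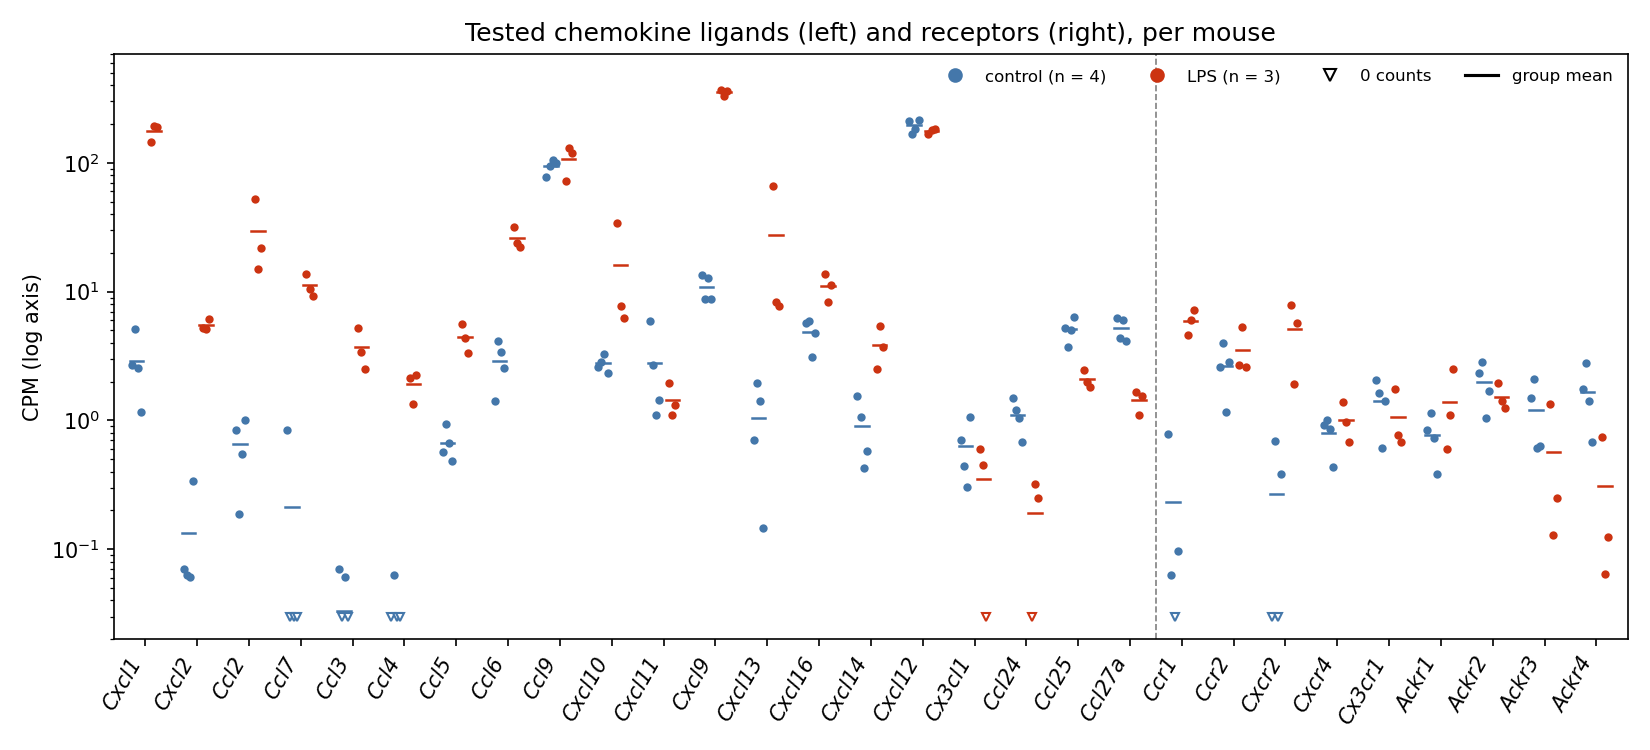
CPM on a log axis (y) of 29 of the 30 tested members (x) in each mouse, ligands left and receptors right of the dashed line, with control mice in blue (n = 4), LPS-treated mice in red (n = 3), horizontal lines for group means and open triangles for 0 counts. Cxcl9, Cxcl1 and the other ligands called higher show red points above all blue points, Cxcl12 and Ccl9 show overlapping groups, and LPS replicate 1 is the high point of Cxcl10 (33.8 CPM) and Cxcl13 (65.8 CPM).

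A total of 3 ligands were called lower, all of them known for homing or eosinophil attraction. Ccl25, the thymic and gut ligand of CCR9, was at 5.24, 3.72, 5.07 and 6.34 CPM in control mice and 2.44, 2.0 and 1.81 CPM in LPS-treated mice. All LPS-treated mice were below all control mice, with a log2 fold change of -1.28 (SE 0.31, edgeR adjusted p = 0.00845). Ccl27a, a ligand of CCR10 on skin-homing T cells, was at 6.30, 4.35, 6.05 and 4.11 CPM in control mice and 1.66, 1.10 and 1.56 CPM in LPS-treated mice. The groups were again separate, and the log2 fold change was -1.84 (SE 0.33, edgeR adjusted p = 0.00133). The mouse genome holds near-identical copies of Ccl27 genes, of which Ccl27b had 0 counts throughout, so the assignment of reads to Ccl27a is uncertain.

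Ccl24, an eosinophil attractant (eotaxin-2) made by macrophages, was at 1.49, 1.2, 1.04 and 0.677 CPM in control mice and 0, 0.322 and 0.249 CPM in LPS-treated mice. No LPS-treated mouse had more than 5 reads and no control mouse fewer than 14, so the groups did not overlap. Ccl24 had a log2 fold change of -2.56 (SE 0.84, edgeR adjusted p = 0.0408). The call was lost in 7 of the 14 alternatives that kept the threshold, and over these 14 the adjusted p ranged from 0.00936 in DESeq2 to 0.0976 in edgeR. These included the fit with LPS replicates 2 and 3 summed (adjusted p = 0.0836 in edgeR) and each fit without an LPS-treated mouse. The log2 fold change was -1.91 without LPS replicate 1 and -3.19 without LPS replicate 2. Of the other eosinophil attractants, Ccl26 was at 0 in every mouse and Ccl11 had 2 counts at most. Eosinophil markers were near 0: Epx and Prg2 had 0 counts in every mouse, and the most abundant, Siglecf, had 10, 1 and 1 counts in LPS-treated mice and 0 in control mice, so none was tested. The 3 summed to 0 CPM in every control mouse and to 0.461, 0.0644 and 0.0623 CPM in LPS-treated mice.

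The remaining ligands were at or near the floor. Ccl1, Ccl21b, Ccl21d, Ccl26 and Ccl27b had 0 counts in all 7 mice, which allows up to 3 counts in each, and Ccl17, Ccl11, Cxcl15 and Cxcl17 had 3 counts or fewer in every mouse. Ccl22, a ligand of CCR4 made by dendritic cells and macrophages, had 10, 2, 0 and 10 counts in control mice and 0 in LPS-treated mice, at least 1.91-fold lower with LPS and at least 1.18-fold without control replicate 1. Ccl20, the ligand of CCR6, had 2, 2 and 4 counts in LPS-treated mice and 0 in control mice. Ccl28, a mucosal ligand of CCR10, had 11 and 16 counts in control replicates 3 and 4 and 3 or fewer in the other 5 mice. The lymph node chemokines Ccl19 and Ccl21a, ligands of CCR7, had at most 7 and 5 counts in any mouse. Ccl21a reached 9 counts over the control mice and 1 over the LPS-treated mice, a ratio of control to LPS of 7.16 whose counting interval of 0.992 to 314 includes 1, and its near-identical copies make the read assignment uncertain. Xcl1, which attracts cross-presenting dendritic cells through XCR1, had at most 6 counts.

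Of the receptors, Ccr1 and Cxcr2 were called higher. Ccr1 (ENSMUSG00000025804), which binds Ccl3, Ccl5, Ccl6, Ccl7 and Ccl9 proteins on monocytes, macrophages and neutrophils, was at 0.778, 0.0631, 0 and 0.0968 CPM in control mice and 4.61, 5.99 and 7.22 CPM in LPS-treated mice. The LPS-treated mice were all above the control mice, of which replicate 1 was the highest. Ccr1 rose by a log2 fold change of 4.73 (SE 0.72, edgeR adjusted p = 3.76e-04). Without control replicate 1, 3 control reads stood against 309 LPS reads, a ratio of 102 with a counting interval of 34.7 to 498. Cxcr2 (ENSMUSG00000026180), the neutrophil receptor for Cxcl1, Cxcl2 and Cxcl5 proteins, was at 0, 0.694, 0 and 0.387 CPM in control mice and 7.83, 1.93 and 5.66 CPM in LPS-treated mice. LPS replicate 2 was the lowest of its group and still above the highest control mouse. Its log2 fold change was 4.18 (SE 0.81, edgeR adjusted p = 0.00209), and it was 5.04 without control replicate 2. The neutrophil markers given above with Cxcl1 rose in the same mice, and their part in the Cxcr2 value was not tested. Cxcr1, the other receptor of this kind, had 8 counts in LPS replicate 1 and 0 in all other mice.

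Several receptors of monocytes and lymphocytes were not called. Ccr2, the monocyte receptor for Ccl2, Ccl7 and Ccl12 proteins, was at 2.62, 3.98, 1.16 and 2.85 CPM in control mice and 2.67, 5.28 and 2.61 CPM in LPS-treated mice. LPS replicate 2 was the highest mouse, the other two lay within the control range, and the log2 difference was 0.40 (95% confidence interval -0.53 to 1.34, edgeR adjusted p = 0.538). This stood beside the 5 monocyte markers called higher, none of which is Ccr2. The sign of the Ccr2 difference changed in 1 alternative. Cxcr4, the receptor of Cxcl12 protein, was at 0.920, 1.01, 0.855 and 0.435 CPM in control mice and 1.38, 0.966 and 0.685 CPM in LPS-treated mice. The groups overlapped, and the log2 difference was 0.35 (95% confidence interval -0.84 to 1.53, edgeR adjusted p = 0.695). Cx3cr1, the fractalkine receptor of patrolling monocytes, was at 2.05, 1.64, 0.611 and 1.40 CPM in control mice and 1.75, 0.773 and 0.685 CPM in LPS-treated mice. These values overlapped as well (log2 difference -0.39, 95% confidence interval -1.60 to 0.82, edgeR adjusted p = 0.664). The intervals of Ccr2, Cxcr4 and Cx3cr1 include a 2-fold difference.

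The receptors of the other called ligands were low. Cxcr5, the B cell receptor of Cxcl13 protein, had 4, 11, 5 and 4 counts in control mice and 6, 0 and 0 in LPS-treated mice. Cxcr6, the receptor of Cxcl16 protein, had 5, 18, 3 and 9 counts in control mice and 3, 2 and 4 in LPS-treated mice. Neither passed the filter. Ccr9, the receptor of Ccl25 protein, had at most 9 counts, Ccr10, the receptor of Ccl27a protein, had 0 in every mouse, and Ccr3, the eosinophil receptor of Ccl24 protein, had 2, 4, 1 and 0 counts in control mice and 0 in LPS-treated mice. Ccr7, the lymph node homing receptor, had at most 8 counts. Xcr1, a marker of cross-presenting dendritic cells, had 11 counts over the control mice, 6 of them in replicate 1, and 1 over the LPS-treated mice, a ratio of control to LPS of 8.75 with a counting interval of 1.27 to 377. Ccr4, Ccr6, Ccr8 and Ccr10 had 0 counts in all 7 mice, and Ccr1l1 and Cxcr3 had 3 or fewer in each. Dendritic cell markers other than Xcr1 were present, with 2 of 5 tested and none called, and summed to 10.9, 8.02, 7.15 and 6.97 CPM in control mice and 7.01, 10.2 and 4.48 CPM in LPS-treated mice, with Zbtb46 the most abundant. The other 4 summed to 5.09, 3.16, 3.06 and 2.71 CPM in control mice and 2.21, 1.80 and 1.81 CPM in LPS-treated mice, with every LPS-treated mouse below every control mouse, whereas the sum of all 5 overlapped between groups.

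All 4 atypical receptors were tested and 1 was called. Ackr4, which clears the ligands of CCR7 and CCR9, was at 1.77, 2.78, 1.41 and 0.677 CPM in control mice and 0.737, 0.0644 and 0.125 CPM in LPS-treated mice. LPS replicate 1 lay slightly above the lowest control mouse, so the groups overlapped. The log2 fold change was -2.30 (SE 0.78, edgeR adjusted p = 0.0467). The call was lost in 6 of the 14 alternatives that kept the threshold, among them the fit with LPS replicates 2 and 3 summed (edgeR adjusted p = 0.144, range over the 14 from 0.00951 to 0.165). Without LPS replicate 1 the log2 fold change was -4.01. Ackr3, a scavenger of CXCL12 on endothelial cells, was at 1.49, 2.08, 0.611 and 0.629 CPM in control mice and 1.34, 0.129 and 0.249 CPM in LPS-treated mice. The LPS-treated mice were split, with replicate 1 within the control range and the other two below it, and the gene was not called (log2 difference -1.0, 95% confidence interval -2.69 to 0.69, edgeR adjusted p = 0.386). Without LPS replicate 1 the log2 difference of Ackr3 was -2.60 (edgeR adjusted p = 0.0600), and without LPS replicate 2 it was -0.55. Ackr1, which binds chemokines on venular endothelium and red cells, and Ackr2, a scavenger of inflammatory CC chemokines, overlapped between groups. Their log2 differences were 0.84 (95% confidence interval -0.48 to 2.16) and -0.36 (95% confidence interval -1.35 to 0.64), and that of Ackr1 was 0.12 without LPS replicate 3. Of 5 endothelial markers, Pecam1 and Lyve1 were called higher and Clec4g lower, with a summed level of 84.2, 111, 70.4 and 96.9 CPM in control mice and 108, 60.2 and 58.6 CPM in LPS-treated mice. On average Clec4g and Stab2 were the most abundant of them in control mice (25.4 and 25.3 CPM) and Pecam1 in LPS-treated mice (26.3 CPM). Of 4 red blood cell markers 3 were called lower, with Hbb-bs the most abundant and a sum of 241, 121, 153 and 101 CPM in control mice and 112, 23.1 and 26.9 CPM in LPS-treated mice. The part of both cell types in the atypical receptor values was not tested.

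The LPS-treated mice did not carry the same chemokine profile. LPS replicate 1 was the highest of its group for 10 of the 15 members called higher, replicate 2 for 2 and replicate 3 for 3. Its level divided by the mean of the other two was 8.18 for Cxcl13, 4.80 for Cxcl10, 2.86 for Ccl2 and 2.06 for Cxcr2. These 4 of 15 members (26.7%) exceeded a ratio of 2, against 125 of the 1068 genes called higher across the liver transcriptome (11.7%), and the median ratios were 1.40 and 0.949. This ratio was formed after the levels had been seen and is a description. Kupffer cell markers also differed among the LPS-treated mice. All 7 were tested, Marco and Adgre1 were called higher, Clec4f was called lower and 4 were not called. Their summed level was 105, 163, 141 and 98.6 CPM in control mice and 598, 108 and 113 CPM in LPS-treated mice. The most abundant was Clec4f in control mice and Marco, a scavenger receptor of macrophages, in LPS-treated mice. Without Marco the sum was 103, 157, 137 and 96.2 CPM in control mice and 189, 41.3 and 47.7 CPM in LPS-treated mice, above every control mouse in LPS replicate 1 and below every one in the other two. Timd4, which marks resident Kupffer cells, was at 4.53, 4.54, 5.26 and 1.98 CPM in control mice and at 12.9, 0.0644 and 0.623 CPM in LPS-treated mice, and Cd5l, a macrophage-secreted protein, at 24.1, 45.0, 40.1 and 25.9 and 75.8, 4.90 and 3.30 CPM. LPS replicate 1 was above every control mouse for both genes and LPS replicates 2 and 3 below every one. The other 5 markers did not show this pattern: Clec4f was below every control mouse in all 3 LPS-treated mice, Marco and Adgre1 were above every control mouse in all 3, Vsig4 in LPS replicate 1 lay within the control range, and C1qa was not below every control mouse in any. The part of Kupffer cells in the chemokine levels of LPS replicate 1 was not tested.

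Markers of stellate cells, cholangiocytes and platelets were examined as well. Of 5 stellate cell markers, Lrat and Reln were called lower, Dcn was the most abundant, and the sum was 295, 222, 137 and 228 CPM in control mice and 186, 154 and 144 CPM in LPS-treated mice. Without Dcn it was 73.5, 55.6, 42.5 and 76.6 CPM in control mice and 18.1, 18.1 and 22.6 CPM in LPS-treated mice, and the groups were separate. Of 4 cholangiocyte markers, Sox9, the most abundant, was called higher, and the sum was 28.6, 11.4, 7.94 and 16.5 CPM in control mice and 20.6, 30.4 and 26.3 CPM in LPS-treated mice. The 3 cholangiocyte markers besides Sox9 summed to 16.1, 6.00, 4.71 and 8.71 CPM in control mice and 5.85, 5.09 and 5.60 CPM in LPS-treated mice. Of 4 platelet markers 2 were tested and none called, Gp1bb was at 0 in every mouse, Itga2b was the most abundant, and the sum was 4.03, 2.65, 3.85 and 2.23 CPM in control mice and 4.38, 2.13 and 1.62 CPM in LPS-treated mice. Stellate cells and cholangiocytes can make chemokines such as CXCL12 and CXCL1, and the part of these cells in the values was not tested.

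Promoter sequences were examined because several neutrophil and interferon-type ligands rose together. RefSeq promoters of GRCm38.p6 were matched by symbol for 47 of the 62 members, and the 250 bases before the transcript start were searched on both strands for 4 motifs. The letters GGGNNNTTCC (NF-kappa B-like) occurred in 4.65% of all 32851 promoters of this length, GAAANNGAAA (interferon regulatory factor-like) in 2.98%, TGACTCA (AP-1-like) in 4.46% and TTCNNNGAA (STAT-like) in 7.02%. These shares are per promoter, whereas a member counted when any of its entries held the letters (54 entries for 47 members). Of the 15 members called higher, 10 had an entry. The NF-kappa B-like letters were found in 3 of them (Cxcl1, Cxcl2 and Cxcl10), the interferon regulatory factor-like letters in 2 (Cxcl10 and Cxcl14), the AP-1-like letters in 1 (Cxcl10) and the STAT-like letters in 1 (Cxcl14). Of the 4 members called lower, 3 had an entry and 1 (Ccl27a) held the AP-1-like letters, in 1 entry and not in its others. Among 9 members with an entry that were tested and not called, 1 (Ccl9) held the NF-kappa B-like letters and none held those of another motif. Among 25 with an entry that were not tested, 5 held the NF-kappa B-like letters (Ccl1, Ccl20, Ccr3, Ccr6 and Cxcl3), 1 the interferon regulatory factor-like letters (Ccl19), 3 the AP-1-like letters (Ccl27b, Ccr3 and Ccr4) and 3 the STAT-like letters (Ccl17, Ccr1l1 and Ccr6). A match describes the letters of the window and no binding was measured. Without an entry were Ccl2, Ccl4, Ccl5, Ccl7 and Cxcl16 among the members called higher and Ccl24 among those called lower.

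The 250 upstream bases are given for the CXCR2 ligands Cxcl1, Cxcl2 and Cxcl3, since Cxcl1 and Cxcl2 rose and Cxcl3 was almost undetected, and for Cxcl10, whose promoter held 3 of the 4 motifs. They are written 5′ to 3′ on the strand of the gene, and capitals mark every match of the 4 motifs on either strand. They lie on chromosome 5 of GRCm38.p6 (RefSeq), at chr5:90890995-90891244 on the plus strand for Cxcl1, chr5:90903649-90903898 on the plus strand for Cxcl2, chr5:90785851-90786100 on the plus strand for Cxcl3 and chr5:92348890-92349139 on the minus strand for Cxcl10.
Cxcl1: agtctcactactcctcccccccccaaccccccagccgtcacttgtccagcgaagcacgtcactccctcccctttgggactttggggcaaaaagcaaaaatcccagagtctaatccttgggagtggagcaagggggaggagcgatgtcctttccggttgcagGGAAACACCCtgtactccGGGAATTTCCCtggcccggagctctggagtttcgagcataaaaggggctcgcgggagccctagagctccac
Cxcl2: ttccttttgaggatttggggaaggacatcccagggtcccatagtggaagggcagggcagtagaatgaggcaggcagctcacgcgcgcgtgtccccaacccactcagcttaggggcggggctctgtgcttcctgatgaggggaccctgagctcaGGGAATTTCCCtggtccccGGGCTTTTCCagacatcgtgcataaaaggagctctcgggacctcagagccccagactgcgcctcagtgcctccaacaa
Cxcl3: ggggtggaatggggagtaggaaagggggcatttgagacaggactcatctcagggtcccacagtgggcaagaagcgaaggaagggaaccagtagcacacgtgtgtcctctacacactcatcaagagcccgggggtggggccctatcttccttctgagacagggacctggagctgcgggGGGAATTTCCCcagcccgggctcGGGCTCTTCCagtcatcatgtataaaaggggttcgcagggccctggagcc
Cxcl10: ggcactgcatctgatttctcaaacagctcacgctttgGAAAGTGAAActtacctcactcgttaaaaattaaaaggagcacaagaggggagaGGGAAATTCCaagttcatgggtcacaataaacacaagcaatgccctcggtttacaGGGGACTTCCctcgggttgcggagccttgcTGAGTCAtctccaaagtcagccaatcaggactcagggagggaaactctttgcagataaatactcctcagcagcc
Cxcl1, Cxcl2 and Cxcl3 shared the match GGGAATTTCC, which began 71, 97 and 73 bases before the start. A match on the opposite strand overlapped it in each promoter, and both appear as 1 run of capitals. Each of these promoters held 1 more NF-kappa B-like match outside this run, 89 bases before the start in Cxcl1 (on the opposite strand), 78 in Cxcl2 and 50 in Cxcl3. Cxcl10 held NF-kappa B-like matches 159 and 104 bases before the start, the interferon regulatory factor-like match GAAAGTGAAA 213 bases before it and an AP-1-like match on the opposite strand 74 bases before it. Outside the shared run, the NF-kappa B-like matches differed, with GGAAACACCC in Cxcl1, GGGCTTTTCC in Cxcl2 and GGGCTCTTCC in Cxcl3. The part of these letters in the levels of the genes was not tested.

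Among 14 further chemokine-related genes that are not members, including platelet chemokines and receptors for other chemoattractants, all were tested, 7 were called higher, 1 lower and 6 not called, with a median log2 fold change of 1.67 against -0.01 over all genes tested. The largest called changes were in receptors of chemoattractants on phagocytes. Fpr2, a formyl peptide receptor, was at 1.34, 0.442, 1.10 and 0.726 CPM in control mice and 28.0, 12.6 and 12.3 CPM in LPS-treated mice, with separate groups and a log2 fold change of 4.30 (SE 0.39, edgeR adjusted p = 4.95e-06). The related Fpr1 had a log2 fold change of 3.55, C5ar1, the receptor of complement C5a, 3.49 (tested through the LPS group), and Cmklr1, the receptor of chemerin, 2.15. Rarres2, which encodes chemerin, the ligand of Cmklr1 made by hepatocytes, was at 538, 484, 438 and 390.2 CPM in control mice and 218, 290.2 and 286 CPM in LPS-treated mice. All LPS-treated mice were below all control mice, but the log2 fold change of -0.81 (SE 0.17, edgeR adjusted p = 0.00344) did not reach the fold threshold, so it was not called. The gene called lower was Dpp4, a peptidase that trims chemokines, with a log2 fold change of -1.31, named after its value was seen.

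Signalling below the receptors was represented by 34 genes, all tested, of which 16 were called higher, 1 lower and 17 not called, with a median log2 fold change of 1.24 against -0.01 over all genes tested. Itgam, the integrin alpha chain by which neutrophils and monocytes adhere, was at 1.56, 0, 0.306 and 0.242 CPM in control mice and 53.2, 35.4 and 36.1 CPM in LPS-treated mice, with a log2 fold change of 6.39 (SE 0.53, edgeR adjusted p = 2.28e-06). Fgr, a Src-family kinase of myeloid cells, had a log2 fold change of 3.06, and Pik3cg, the phosphoinositide 3-kinase activated by G proteins, 2.92. Itgam and Pik3cg passed the filter through the LPS group. Rgs16, a regulator that ends G protein signalling, was the gene called lower and passed the filter through the control group, at 2.97, 13.7, 2.57 and 12.8 CPM in control mice and 1.06, 0.387 and 0 CPM in LPS-treated mice, with separate groups and a log2 fold change of -3.94 (SE 0.83, edgeR adjusted p = 0.00384). Rac1, a ubiquitous GTPase of cell migration and the only gene of this list with a mean of at least 100 CPM that was not called, was at 67.9, 78.6, 110.1 and 104 CPM in control mice and 107, 101 and 96.2 CPM in LPS-treated mice, with overlapping groups (log2 difference 0.17, 95% confidence interval -0.21 to 0.55, edgeR adjusted p = 0.530). Several of these genes, Itgam and Fgr among them, are expressed mainly by myeloid cells, whose markers rose in the same mice, and the part of cell number in their values was not tested.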

How the data were processed

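Poly(A)-selected, strand-specific (dUTP) libraries of 7 livers were read on the MGISEQ2000 platform. The authors deposited raw counts of reads per gene for 56691 genes, not normalized. The submitters' processing notes name cutadapt 1.9.1, HISAT2 2.2.1, HTSeq 0.6.1, DESeq2 1.34.0 and the build GRCm39, and the annotation and the counting mode were not given in the sources used here. Mice pretreated with sulforaphane were not analysed here.

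Members were found by symbol, and 2 pseudogenes were left out. The values of 1 member and of 1 B cell marker are not reported here. The members and lists were chosen with earlier results of these data known. After filterByExpr and TMM scaling, all 7 samples entered edgeR's quasi-likelihood fit (edgeR 4.0.16, R 4.3.3) with no term besides condition, and p-values were adjusted over 13683 genes (Benjamini-Hochberg). The SE was derived from the F statistic. Calls needed an adjusted p under 0.05 and a log2 fold change beyond 1 in either direction. A fold against a group at 0 was computed with 3 counts in each of its libraries, and against a group with 1 to 3 counts with an exact binomial interval at 95%.

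Per-sample values were given for members that were called, that were past the fold but at the floor in one group, that reached a mean of 5 CPM, or that are receptors of called ligands. Of these receptors, Ccr9 and Cxcr3 had few reads and were given by their highest count only. From the other pathway lists, the 4 largest called changes were named, and every uncalled gene whose mean reached 100 CPM. Exon lengths came from GENCODE M21 (GRCm38), matched by identifier for all 62 members. They join the exons of all isoforms, so genes with many isoforms, Cxcl12 and Ccl25 among them, have long lengths and low per-kb levels. The 4 motifs, and the marker genes named beside the counts of their lists, were chosen after the values were seen.

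Each call was repeated with DESeq2 1.42.0, with mitochondrial genes left out, with RLE factors, with unscaled totals, unfiltered, with 10 counts required of every sample, with no fold threshold, with an adjusted p under 0.01, with replicate number as a block, with LPS replicates 2 and 3 summed, and without each mouse in turn.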

Additional observations from a re-analysis of the deposited data

Results flagged for a closer look

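In 4 of the 30 tested members, 1 control mouse lay apart from the other 3 by most of the range of its group, and chance alone sets such a mark on about 1 in 20 groups of normally distributed values. Counts this close to 0 are not such values, and the rate for them was not computed. Ccl7 was at 0.849 CPM in control replicate 1 and at 0 in the other control mice. Ccr1 was at 0.778 CPM in the same mouse, with at most 0.0968 CPM in the others. Cxcl2 was at 0.339 CPM in control replicate 4, where the others held 1 read each. Ccl4 was at 0.0631 CPM in control replicate 2, which is a single read against 0 in the others. The LPS-treated mice were above these control values in all 4 genes.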

How the results depend on the processing

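Of the 19 called members, 16 kept their call in every alternative that kept the threshold and gave a value. Ccl24, Ackr4 and Cxcl14 did not, and the cause was not tested. With at least 10 counts in every sample, where only 14 members were tested, 5 members were called higher and 2 lower, and 693 genes were called higher in all. Without a fold threshold, 1825 genes were called higher and 1773 lower, with the same 15 and 4 members. At an adjusted p below 0.01, 2 members were called lower (Ccl25 and Ccl27a), and 2 were called lower with LPS replicates 2 and 3 summed. Leaving out 1 mouse gave 15 to 16 members called higher and 2 to 4 called lower. Without any filter, Ccl12, Cxcl5 and Ccl22 gained calls. In DESeq2, 14 members were higher and 4 lower, and Cxcl13 had no adjusted p. Total counts without scaling moved the median of all genes by -0.115 on the log2 scale, with the same 15 and 4 members called.

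The sign turned in Ccr2, which was not called: its log2 difference ranged from -5.93e-04 to 0.64 when 1 mouse was left out, its lowest without LPS replicate 2. The labels give same-numbered samples no link besides the number. The correlations of their deviations were 0.22, -0.06 and 0.09, and those of differently numbered samples ranged from -0.16 to 0.11. These values cannot show whether same-numbered samples shared a batch. With the replicate block 15 members were called higher and 3 lower, without Ccl24 (log2 fold change -2.88, edgeR adjusted p = 0.0694). The block also moved the log2 fold change of Cxcl13 from 4.73 to 3.56, that of Cxcl2 from 5.18 to 6.26 and that of Ackr4 from -2.30 to -2.90, and these 3 kept their calls.

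With 3 LPS-treated mice, 2 of them unusually alike, p-values rest on few animals. For 32 members too few reads were present for a test.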
